A study of Mus musculus with 8 samples.

Results

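Genes of fibroblast growth factors (FGFs) and their receptors were examined in mouse embryonic stem cells with and without the transcription factor KLF4. The set holds 7 genes, 3 for ligands (Fgf4, Fgf5 and Fgf15) and 4 for receptors (Fgfr1, Fgfr2, Fgfr3 and Fgfr4). They were chosen by name, and each was found by its Ensembl identifier among the 52636 identifiers counted in every library. The cells were E14, an embryonic stem cell line from the mouse blastocyst, as KLF4-KO cells, in which Klf4 was knocked out, and as unmodified wild-type (WT) cells. RNA-seq comprised 2 KO libraries, called B and F, and 2 WT libraries, called replicates 1 and 2. Contacts of chromatin came from HiChIP for RNA polymerase II, a method that joins nearby DNA ends and pulls down the polymerase, with 1 pooled file per genotype.

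The labels give all samples the same pair of media, each with 15% serum. The first holds LIF at 10 ng/mL, the MEK inhibitor PD0325901 at 1 µM and the GSK3 inhibitor CHIR99021 at 3 µM. The second holds LIF at 1000 U/mL. The sources used here do not give which of them the cells were in at harvest, nor whether the KO libraries came from 1 edited clone, so loss of Klf4 cannot be told apart from other differences between the cultures. A difference of that kind was measured, since the Y-linked genes Eif2s3y and Ddx3y had 0 CPM in both KO libraries and 86.7 ± 4.35 and 52.8 ± 21.7 CPM in WT (SD, n = 2).

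FGFs bind receptor tyrosine kinases at the cell surface together with heparan sulfate, and the receptors signal through RAS and the kinases MEK and ERK. In mouse embryonic stem cells FGF4 is the main ligand made by the cells themselves, and its signal through ERK moves them out of the naive state. FGF5 marks the epiblast after implantation, FGFR2 serves the primitive endoderm and trophoblast of the blastocyst, and FGF15 is a ligand of the gut and the embryonic nervous system.

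Among the 7 genes, Fgf15 and Fgfr2 were higher in KO cells, 9.08-fold and 5.13-fold. Fgf4 and Fgfr1 did not pass the test, with log2 fold changes of 0.13 and -0.02. Fgfr3 was 7.79-fold higher but missed the threshold, Fgfr4 varied more between the KO libraries than between genotypes, and Fgf5 was detected in KO libraries alone. A HiChIP anchor lay in Fgf4, Fgfr1 and, in the KO pool, Fgfr3, which is 3 of the 7 genes in KO and 2 of 7 in WT. Among all protein-coding genes the shares with an anchor were 49.2% in KO and 33.8% in WT.

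The sequences before the start sites are shown because KLF4 binds GC-rich DNA near promoters, and because a HiChIP anchor covers the promoter of Fgf4 in both pools and that of Fgfr3 in the KO pool, while none covers those of Fgf5 and Fgfr2. Each line gives 250 bases upstream of the RefSeq start site on GRCm38.p6, 5′ to 3′ on the gene's strand. Capitals mark matches to CACCC or GGGNGTGG on either strand. The table held 5 of the 7 genes.
Fgf4 (chr7:144861136-144861385, plus strand): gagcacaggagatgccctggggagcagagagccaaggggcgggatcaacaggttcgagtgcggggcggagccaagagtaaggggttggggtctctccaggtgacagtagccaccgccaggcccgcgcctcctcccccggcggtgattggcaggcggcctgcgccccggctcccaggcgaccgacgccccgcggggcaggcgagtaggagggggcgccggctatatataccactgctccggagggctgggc
Fgf5 (chr5:98253934-98254183, plus strand): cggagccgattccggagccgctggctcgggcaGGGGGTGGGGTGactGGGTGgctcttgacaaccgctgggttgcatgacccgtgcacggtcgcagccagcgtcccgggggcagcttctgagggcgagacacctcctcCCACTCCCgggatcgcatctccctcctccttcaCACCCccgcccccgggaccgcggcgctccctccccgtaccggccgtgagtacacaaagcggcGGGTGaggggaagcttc
Fgfr2 (chr7:130266809-130267058, minus strand): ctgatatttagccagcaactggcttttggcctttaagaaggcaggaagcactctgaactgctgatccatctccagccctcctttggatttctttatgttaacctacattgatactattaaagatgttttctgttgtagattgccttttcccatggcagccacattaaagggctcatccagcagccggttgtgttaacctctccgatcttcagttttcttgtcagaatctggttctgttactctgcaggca
Fgfr3, first start site (chr5:33721474-33721723, plus strand): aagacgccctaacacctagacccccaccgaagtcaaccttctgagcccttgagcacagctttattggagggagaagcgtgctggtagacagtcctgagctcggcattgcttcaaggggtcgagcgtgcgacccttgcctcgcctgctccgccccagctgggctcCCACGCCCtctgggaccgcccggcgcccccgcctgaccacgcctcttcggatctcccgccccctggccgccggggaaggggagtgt

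The Fgf5 window held 5 matches to CACCC and 2 to GGGNGTGG, of which some share bases. The Fgfr3 window held 1 match to GGGNGTGG, from base -86 to base -79. No match to these motifs was found in the windows of Fgf4, Fgfr2, Fgfr4 and the second start site of Fgfr3, and none of the windows held the octamer ATGCAAAT. Over 32851 promoter windows of the same length, 52.0% held CACCC, 15.9% GGGNGTGG and 1.60% ATGCAAAT. GC content was 71.2% for Fgf4, 70.8% for Fgf5 and 66.8% for Fgfr3, against 44.0% for Fgfr2. A match describes letters and no binding was measured.

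Gene counts summed to between 8287497 and 8448519 in the KO libraries and between 9020599 and 9762190 in the WT libraries. Klf4 had 0 counts in both KO libraries and 2882 and 2421 in the WT libraries. Embryonic stem cell markers were present in every library, with a summed level of 8406 and 7667 CPM in KO and 6577 and 8599 CPM in WT. A pair of KO values is library B and then library F, and a pair of WT values replicate 1 and then 2. CPM are counts scaled to a common library size after TMM scaling, and levels are compared only within a gene, since gene lengths differ. In edgeR's quasi-likelihood test, 1288 of 15517 tested genes (8.30%) passed a false discovery rate (FDR, Benjamini-Hochberg) of 0.05, 2.96% higher and 5.34% lower in KO. Of the 7 FGF genes, 6 passed the filter on low counts, 2 were called higher and 0 lower. Both KO libraries lay above both WT libraries for 4 of the 7, compared with 26.0% of tested genes, and the groups overlapped for the other 3.

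**Figure D1:**
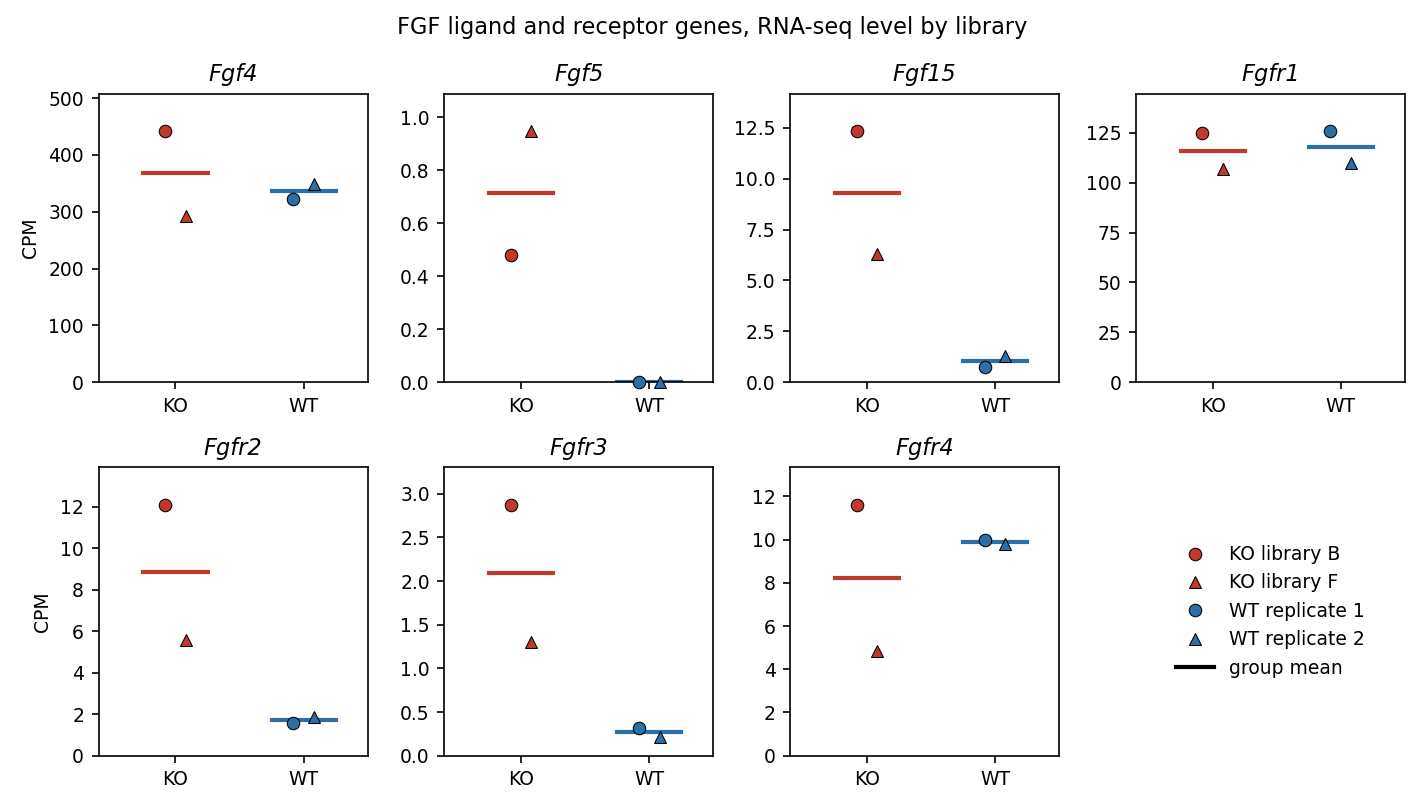
Level of each FGF gene in CPM (vertical axes, each starting at 0 and scaled to its gene) in the KO libraries B and F and the WT replicates 1 and 2, with a bar at the mean of each genotype. Fgf15 lies at 12.3 and 6.28 CPM in KO and at 0.744 and 1.31 CPM in WT, whereas the points of Fgf4, Fgfr1 and Fgfr4 overlap between genotypes.

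Fgf4 (ENSMUSG00000050917, chr7:144861386-144865245) had 3689 and 2474 counts in KO and 3033 and 3209 in WT. This was 442 and 293 CPM in KO against 322 and 349 CPM in WT, so the KO libraries lay on either side of the WT ones. The means were 367 ± 105 CPM in KO and 336 ± 18.9 CPM in WT (SD, n = 2 each). The log2 fold change was 0.13 (95% interval -0.50 to 0.76, edgeR FDR 0.81), and it was -0.20 without KO library B. In these bulk samples, fewer cells of a type and less RNA per cell cannot be told apart.

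Fgf15 (ENSMUSG00000031073, chr7:144896532-144900953), the mouse counterpart of human FGF19, lies 31.3 kb beyond Fgf4 on the same chromosome. It had 103 and 53 counts in KO, against 7 and 12 in the WT libraries. Its mean was 9.31 ± 4.28 CPM in KO and 1.02 ± 0.397 CPM in WT (SD, n = 2 each), which gave a log2 fold change of 3.17 with an SE of 0.56 (95% interval 1.88 to 4.46) at an edgeR FDR of 0.015. Every KO value lay above every WT value. The call held when any single library was left out, with log2 fold changes from 2.60 to 3.59, and was lost with no expression filter (edgeR FDR 0.11). The gene overlaps the long non-coding RNA gene Gm26793 (chr7:144894121-144899688), which also rose, with 16 and 15 counts in KO and 2 and 1 in WT (edgeR FDR 0.030). The sources used here do not state the strand setting of the counts, so the assignment of reads between the overlapping genes is uncertain.

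The protein-coding neighbours of this pair of ligand genes did not pass the threshold. Fgf3, another FGF gene 18.0 kb before Fgf4, had 30 and 25 counts in KO and 79 and 102 in WT (log2 fold change -1.57, edgeR FDR 0.054). LTO1, 14.1 kb beyond Fgf15, had 348 and 308 counts in KO and 374 and 482 in WT (log2 fold change -0.24, edgeR FDR 0.64).

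Fgf5 (ENSMUSG00000029337, chr5:98254184-98277033) had 4 and 8 counts in KO and 0 in both WT libraries. It did not pass the filter and was not tested with the other genes. Its pooled KO level was 4.43 times a floor of 3 counts over the WT libraries together. That ratio leaves out the counting error of the KO libraries, so it is not a lower limit of the fold change. With no filter Fgf5 had an edgeR FDR of 0.23 at an unadjusted p of 0.020. The tested genes nearest to it, Naa11 and Prkg2, lay 862 kb and 653 kb away.

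Fgfr1 (ENSMUSG00000031565, chr8:25518759-25575718), the main FGF receptor of mouse embryonic stem cells, had 1044 and 902 counts in KO and 1184 and 1012 in WT. The levels were 116 ± 12.9 CPM in KO and 118 ± 11.1 CPM in WT (SD, n = 2 each). The log2 fold change was -0.02 (95% interval -0.56 to 0.51, edgeR FDR 0.96). Its span overlaps the non-coding genes Gm16159 and Gm31288, so some of its reads are uncertain too.

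Fgfr2 (ENSMUSG00000030849, chr7:130162451-130266808, minus strand) had 101 and 47 counts in KO, against 15 and 17 in WT. The means were 8.83 ± 4.62 CPM in KO and 1.72 ± 0.180 CPM in WT (SD, n = 2 each), which gave a log2 fold change of 2.35 with an SE of 0.53 (95% interval 1.14 to 3.56) at an edgeR FDR of 0.032. The KO libraries lay above the WT ones and were 2.17-fold apart. The call was lost without KO library B (log2 fold change 1.69, edgeR FDR 0.15) and with no expression filter (edgeR FDR 0.15), and limma voom gave an adjusted p of 0.052.

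Fgfr3 (ENSMUSG00000054252, chr5:33721724-33737068) had 24 and 11 counts in KO and 3 and 2 in WT. The means were 2.09 ± 1.11 CPM in KO and 0.268 ± 0.0716 CPM in WT (SD, n = 2 each). The log2 fold change was 2.89 (95% interval 1.17 to 4.62) with an edgeR FDR of 0.053. Leaving out KO library B gave 2.22 at an FDR of 0.39, and without KO library F it was 3.36 at an FDR of 0.043, the only removal of a library that gave a call in edgeR. The edgeR FDR was 0.074 without WT replicate 1 and 0.15 without WT replicate 2, and DESeq2 gave an adjusted p of 0.11. Groups did not overlap, but the WT level rests on 5 counts.

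Fgfr4 (ENSMUSG00000005320, chr13:55152818-55168759) had 97 counts in KO library B and 41 in KO library F, against 94 and 90 in WT. Its means were 8.24 ± 4.78 CPM in KO and 9.89 ± 0.141 CPM in WT (SD, n = 2 each). The log2 fold change was -0.26 at an edgeR FDR of 0.77 (95% interval -1.31 to 0.79). It became 0.24 without KO library F and -1.02 without KO library B.

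**Figure D2:**
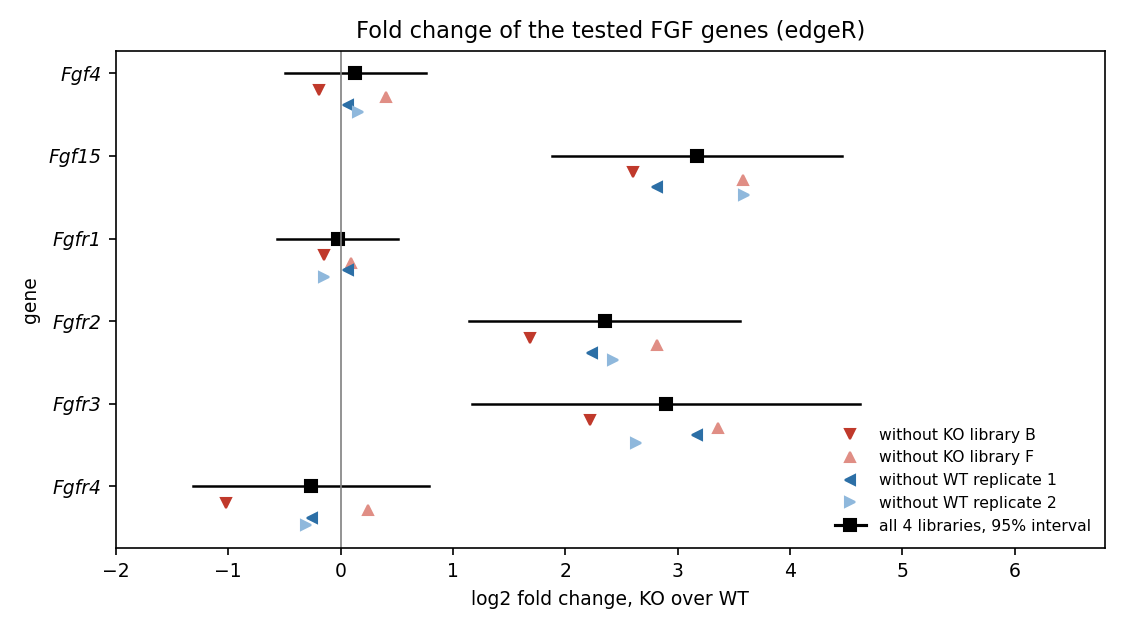
log2 fold change, KO over WT, of the 6 tested FGF genes (horizontal axis) with 95% intervals from edgeR, and the values with each library left out. Fgf15 lies at 3.17 with an interval above 0, and Fgf4, Fgfr1 and Fgfr4 have intervals that include 0.

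The KO libraries differed from each other in many of these genes. Library B was more than 1.5-fold above library F in 5 of the 7 (Fgf4, Fgf15, Fgfr2, Fgfr3 and Fgfr4, from 1.51-fold to 2.39-fold), compared with 12.8% of tested genes. Fgfr1 had a B over F ratio of 1.17 and Fgf5 one of 0.506. This comparison was chosen after the values were seen.

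Over the 4 libraries, the tested gene closest to Fgf15 in its pattern was Vrtn, with a root mean square difference of centred log2 CPM of 0.130, followed by Tmem54 and Cdkn1c at 0.130 and 0.131. Fgfr2 was closest to Prr19 (0.0514), Atp4a (0.0553) and Tmem59l (0.0837). Fgfr3 was closest to Nxph4 (0.110), Mrc2 (0.124) and Grb14 (0.140). For the other tested FGF genes the closest were Zfp956 for Fgf4 (0.0169), Srebf2 for Fgfr1 (0.0151) and Kctd15 for Fgfr4 (0.0375).

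Other FGF ligands showed 1 called fall and no called rise among 8 tested of 19 listed, beside 5.34% called lower over all tested genes. Their median log2 fold change was 0.34 beside -0.0015 over all tested genes. The list also holds Fgf11, Fgf12, Fgf13 and Fgf14, whose products stay inside the cell and are not ligands in the strict sense. Of these Fgf11 and Fgf13 were tested and enter the median, with log2 fold changes of 0.48 and 1.03 (edgeR FDR 0.53 and 0.29). Fgf10, a ligand of limb and lung buds, had 20 and 19 counts in KO and 81 and 70 in WT. It fell to 2.32 ± 0.103 CPM in KO, against 8.11 ± 0.702 CPM in WT (SD, n = 2 each, log2 fold change -1.80, edgeR FDR 0.037). Leaving out either KO library or WT replicate 1 ended this call (edgeR FDR 0.057 to 0.099). Fgf6, Fgf9 and Fgf16 had 0 counts in every library.

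Among 25 tested of 28 genes for co-receptors and heparan sulfate, 4 were called lower and 1 higher, with a median log2 fold change of -0.83. Over all tested genes the shares were 5.34% lower and 2.96% higher. In this list 11 had an unadjusted p under 0.05 in edgeR, with Sulf1 and Ext1 higher and the rest lower. Ndst2, for an enzyme that sulfates heparan chains, had 36 and 28 counts in KO and 184 and 134 in WT (log2 fold change -2.16, edgeR FDR 0.014). Hs6st1, for a 6-O-sulfotransferase, was at 75.4 ± 5.55 CPM in KO and 160 ± 17.9 CPM in WT (SD, n = 2 each, edgeR FDR 0.030). Sulf1 encodes an enzyme outside the cell that removes such 6-O-sulfate groups. Sulf1 was higher in KO, with 361 and 477 counts against 193 and 156 in WT (log2 fold change 1.41, edgeR FDR 0.023). Sulf2, for another enzyme of this kind, was lower in KO but missed the threshold. It had 1109 and 1205 counts in KO and 2452 and 2115 in WT (log2 fold change -0.83, edgeR FDR 0.064). The net effect on 6-O-sulfate groups was not tested.

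The other 2 called falls were in genes of heparan sulfate carriers at the cell surface. Sdc4, a syndecan, had 442 and 352 counts in KO and 892 and 1039 in WT (edgeR FDR 0.033). Gpc6, a glypican, had 3 and 0 counts in KO and 29 and 23 in WT, a ratio of 0.0639 (exact 95% interval 0.0128 to 0.197, counting error only, edgeR FDR 0.037). Without KO library F the calls of Sulf1, Hs6st1, Sdc4 and Gpc6 were lost (edgeR FDR 0.10 to 0.33), and without KO library B those of Hs6st1 and Sdc4 (0.27 and 0.11). Kl, the klotho gene, had 0 counts in all libraries. Its relative Klb, a co-receptor for FGF15, had 9 and 3 counts in KO and 11 and 15 in WT (edgeR FDR 0.45).

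No gene of the adaptors and the RAS-ERK cascade passed in edgeR among 27 tested of 28, with 5 at an unadjusted p under 0.05 and a median log2 fold change of 0.16. Likewise none passed among 17 tested of 21 other receptor tyrosine kinase genes, with 3 at an unadjusted p under 0.05 and a median of -0.47. DESeq2 and limma voom also called 0 genes in both lists, whereas leaving out WT replicate 1 gave 2 calls in the cascade and leaving out WT replicate 2 gave 1 there and 2 among the other kinases.

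The list of ERK feedback inhibitors and ETV transcription factors includes genes known to be switched on by FGF signalling, though not every gene in it is an established FGF target. Of 16 tested in this list, 4 were called higher in KO and 0 lower, with a median log2 fold change of 0.79. Over all tested genes the shares were 2.96% higher and 5.34% lower. An unadjusted p under 0.05 in edgeR was found for 13, with Spry2, Dusp1, Dusp2 and Dusp7 lower and the rest higher. Spry2 had a log2 fold change of -0.92, Dusp1 -0.60, Dusp2 -1.82 and Dusp7 -0.79, none of them past the threshold (edgeR FDR 0.15 to 0.20). Estimates in the list thus went in both directions, while the called genes were all higher. Spry4, a Sprouty inhibitor of receptor signalling, had 360 and 900 counts in KO and 32 and 22 in WT (log2 fold change 4.68, edgeR FDR 0.0032). The ERK phosphatase gene Dusp6 had 305 and 637 counts in KO and 141 and 102 in WT (edgeR FDR 0.018). Etv4 had 713 and 1186 in KO and 265 and 300 in WT (edgeR FDR 0.011), and Dusp4 102 and 110 in KO and 19 and 9 in WT (edgeR FDR 0.0097). Library F was the higher KO library for all 4 of these genes, whereas library B was the higher for Fgf15 and Fgfr2.

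**Figure D3:**
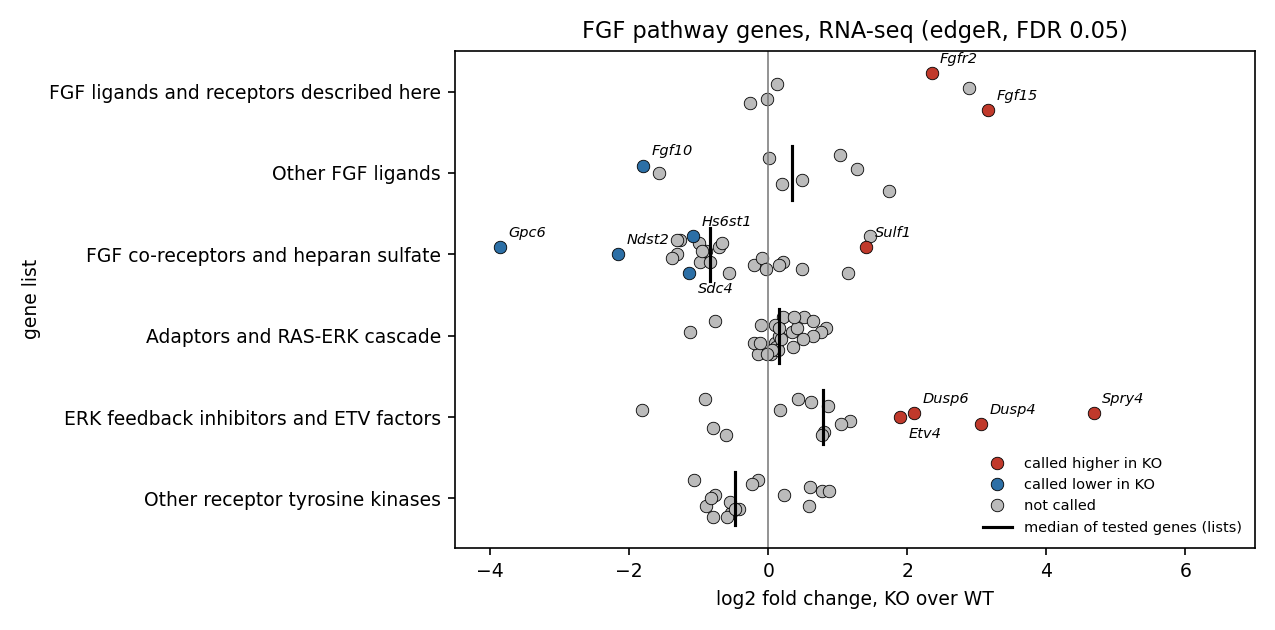
log2 fold change, KO over WT (horizontal axis), of every tested gene in the FGF set and further lists of the pathway (rows), with red or blue points for genes past an edgeR FDR of 0.05 and a bar at each list's median outside the FGF set. The medians run from -0.83 for co-receptors and heparan sulfate to 0.79 for ERK feedback inhibitors and ETV factors.

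Lists of cell state markers were summed beside these genes, and again without the most abundant gene of each list, a step chosen after the values were seen. Embryonic stem cell markers without Dppa5a summed to 5881 and 5754 CPM in KO and 4629 and 5347 CPM in WT. The KO sums then lay above the WT ones, and of 10 tested markers 2 were called higher in KO and 0 lower. Of 9 tested formative epiblast markers 7 were called higher in KO, compared with 2.96% of all tested genes. The summed level of the list, which includes Fgf5, was 597 and 647 CPM in KO and 157 and 122 CPM in WT. Without Dnmt3a it was 377 and 355 CPM in KO and 102 and 81.6 CPM in WT, so it was higher in both KO libraries either way. Primitive endoderm markers summed to 84.3 and 121 CPM in KO and 260 and 188 CPM in WT. That order came from the laminin gene Lama1, without which the sums were 41.7 and 52.8 CPM in KO and 26.0 and 21.8 CPM in WT. Of 6 tested genes of this list Gata6 and Col4a1 rose and Lama1 fell, with a median log2 fold change of 0.10.

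Trophoblast markers summed to 168 and 105 CPM in KO and 154 and 156 CPM in WT, and without Tfap2c to 61.4 and 46.3 CPM in KO and 85.2 and 84.8 CPM in WT. Among them Cdx2 had 5 and 1 counts in KO and 1 and 4 in WT, and Elf5 0 in KO and 1 and 0 in WT. Cdx2 and Elf5, which define trophoblast, were thus near 0 in both genotypes. For comparison with this list and those below, 2.96% of all tested genes were called higher and 5.34% lower. Of 7 tested trophoblast markers 1 was called higher in KO and 0 lower. The called gene was Hand1, with 20 and 12 counts in KO and 2 in each WT library (log2 fold change 3.07, edgeR FDR 0.039). Krt8 and Tead4 also had an unadjusted p under 0.05 in edgeR and were lower in KO, with log2 fold changes of -0.99 and -1.37. Early neural markers summed to 60.1 and 29.4 CPM in KO and 67.4 and 66.2 CPM in WT, 2 higher and 2 lower of 5 tested, and without Nes to 51.7 and 23.5 CPM in KO and 40.0 and 34.3 CPM in WT. Mesendoderm markers summed to 12.1 and 8.53 CPM in KO and 36.9 and 37.9 CPM in WT, with 2 of 3 lower, and without Lefty2 to 7.67 and 6.28 CPM in KO and 7.33 and 11.5 CPM in WT. The groups therefore overlapped for both of these lists once the most abundant gene was left out. Fibroblast markers summed to 1202 and 1504 CPM in KO and 2989 and 1968 CPM in WT, and without Fn1, the fibronectin gene, to 175 and 153 CPM in KO and 146 and 199 CPM in WT. None of 5 tested fibroblast genes was called in edgeR, and the 2 with an unadjusted p under 0.05 went opposite ways, Thy1 at 9.82 and 8.41 CPM in KO and 3.72 and 4.79 CPM in WT, and Fn1 lower in both KO libraries. The part of any of these lists in the FGF results was not tested.

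HiChIP contacts are given as paired-end tags (PETs) between anchors, the stretches of chromatin that the deposited lists give as the ends of a pair. The KO pool held 401726 PETs in 118475 anchor pairs and the WT pool 35189 PETs in 19914 pairs, so shares per 10000 PETs of a pool are used. With 1 pool per genotype there is no replicate error and no test, and exact binomial 95% intervals cover counting error only. Each pool has its own list of anchors, so sums also move with how much was called. An anchor lay in 3 of the 7 genes in KO and in 2 of 7 in WT, compared with 49.2% and 33.8% of 21887 protein-coding genes.

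Fgf4 had 90 PETs in 15 pairs in the KO pool and 28 PETs in 11 pairs in the WT pool. These were 2.24 per 10000 in KO (1.80 to 2.75) and 7.96 per 10000 in WT (5.29 to 11.5). The size of this gap depends on the anchors counted. The shares were 3.98 in KO and 7.96 in WT within 2.5 kb of the start site, and 2.24 in KO and 2.84 in WT when at least 50% of an anchor had to lie in the gene. With pairs of at least 2 PETs they were 2.49 in KO and 11.3 in WT. Over the whole window from -20 to 100 kb around the start site, the shares were 4.63 per 10000 in KO (3.99 to 5.35) and 6.54 in WT (4.14 to 9.81), with overlapping intervals.

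In KO 1 anchor covered the Fgf4 start (chr7:144860725-144864683). It shared 36 PETs with the anchor before it, centred 4.87 kb away, 13 with the next anchor downstream and 12 with the one after that, and 16 PETs joined it to itself. In WT 2 anchors lay in the gene, with 7 PETs between them and 5 within the second. They shared 2 and 4 PETs with the upstream anchor (chr7:144855890-144858404), and 3 PETs reached Ccnd1, the cyclin D1 gene, 75.1 kb away. The KO pool held 1 PET to the anchor near Ccnd1, 79.9 kb away, and 1 to that at LTO1. No anchor lay in Fgf15 in either pool, with the nearest 11.9 kb away in KO and 28.6 kb in WT.

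**Figure D4:**
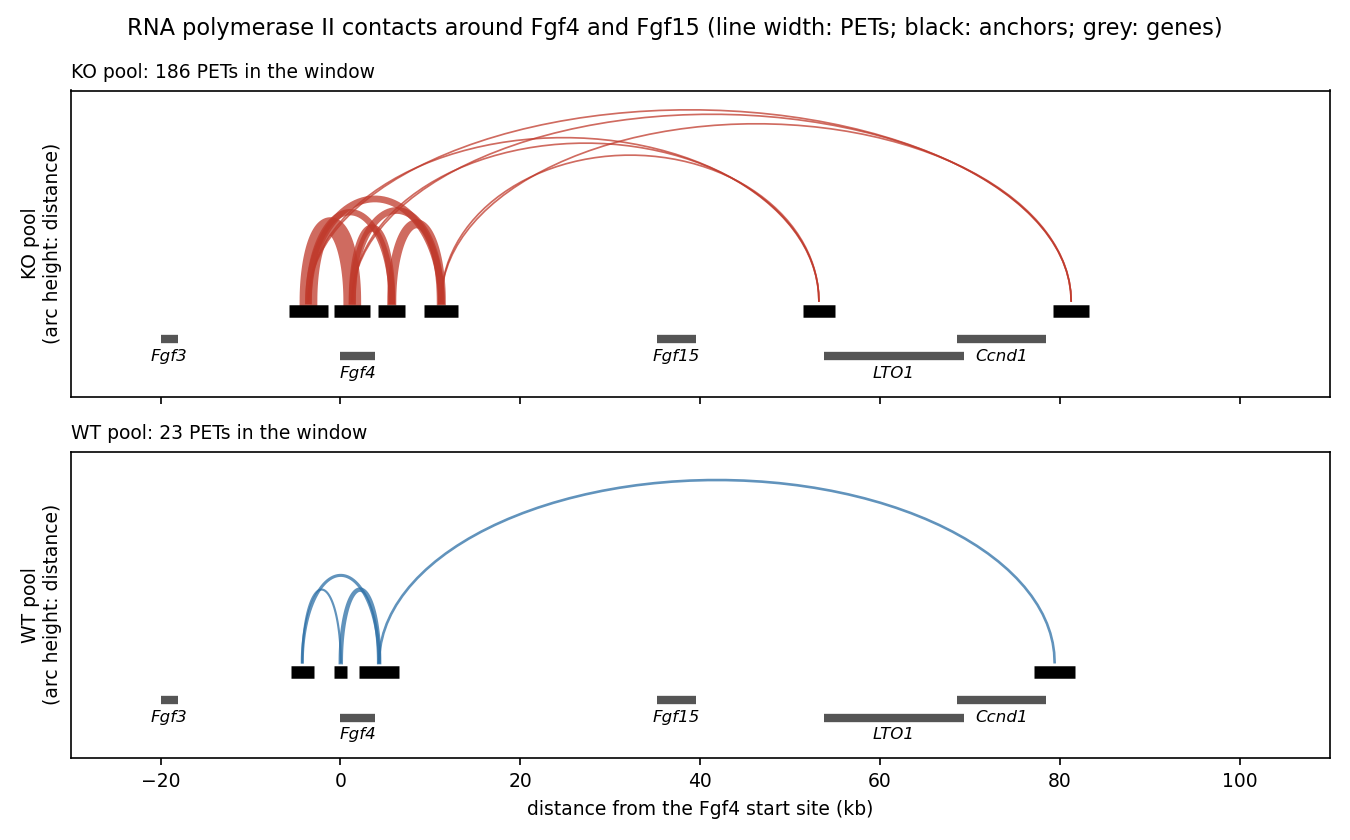
HiChIP contacts from 20 kb before to 100 kb after the Fgf4 start (horizontal axis, distance in kb) in the KO pool (upper) and the WT pool (lower), with anchors as black boxes, genes as grey boxes (Fgf3 drawn from the window's edge) and contacts between anchors as arcs. The window holds 6 anchors and 186 PETs in KO and 4 anchors and 23 PETs in WT, or 4.63 per 10000 PETs in KO and 6.54 in WT, with no anchor over Fgf15.

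Fgfr1 had 72 PETs in 32 pairs in KO and 6 PETs in 5 pairs in WT, which is 1.79 per 10000 in KO (1.40 to 2.26) and 1.71 in WT (0.626 to 3.71). The anchor over its start (chr8:25517963-25519894) was listed with the same ends in both pools. In KO 2 more anchors lay inside the gene, and 28 of the PETs fell within one of these (chr8:25540932-25547726). Letm2, a gene of a mitochondrial protein family, lay at the other end of 3 KO PETs from that inner anchor (52.6 kb away). From the anchor over the start, Letm2 lay at the other end of 1 PET in KO (83.4 kb away, also near Nsd3) and of 2 in WT (78.8 kb away). Of the KO pairs 25 held a single PET.

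Fgfr3 had 9 PETs in 8 pairs in KO, 0.224 per 10000 (0.102 to 0.425), from 1 anchor over its promoter (chr5:33721027-33723099), and no anchor in WT, where the nearest was 44.8 kb away. A count of 0 among the WT PETs allows up to 0.853 per 10000, above the KO share, so a difference between the pools was not detectable at this depth. Of these pairs 7 held a single PET. Fgfr2 had no anchor in either pool, the nearest being 243 kb away in KO and 86.6 kb in WT. For Fgfr4 the distances were 8.45 kb in KO and 12.9 kb in WT, and for Fgf5 1049.8 kb in KO and 859.6 kb in WT. Neither Fgf15 nor Fgfr2, the genes called higher in KO, had a listed contact in its span.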

How the data were processed

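RNA-seq of 2 KO and 2 WT libraries and HiChIP pools of KO and WT cells were analysed. The deposited values are raw counts of reads per Ensembl gene, and raw counts of PETs per anchor pair. The build was mm10, and the tools named are HiC-Pro 2.11.4, HTSeq 0.9.1, HISAT2 2.1.0 and DESeq2 1.18.1, per the submitters' processing notes. The sources used here do not give the annotation release, strand setting or loop caller. Reads in genes made up 34.5% to 36.0% of the records of a library, and reads in no gene, multiple or ambiguous ones were left out.

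Genotypes were compared in R 4.3.3 by the quasi-likelihood F-test of edgeR 4.0.16 after filterByExpr and TMM, with Benjamini-Hochberg adjustment over 15517 genes at an FDR of 0.05. The script was tested on simulated data. Alternatives were RLE factors, library totals, DESeq2 1.42.0, limma 3.58.1 voom, other filters and leaving out each library. p-values measure the spread between these libraries, whose cultures the labels call biological replicates. Symbols came from the supplied table, and positions and promoters from RefSeq on GRCm38.p6.

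KO files carry the letters B and F and no replicate number. A PET was assigned to a gene when an anchor overlapped its RefSeq span by at least 1 bp. The genes and lists were chosen with earlier results of these data known. Named besides the 7 genes are up to 6 called genes with the smallest p in each list, the 3 tested genes closest in pattern, the nearest tested neighbours, partners of contacts, and Klf4. Others are named as marker genes or were chosen after their values were seen.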

Additional observations from a re-analysis of the deposited data

How the results depend on the processing

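No paired analysis was possible because the KO libraries carry letters and no replicate number. With no expression filter, edgeR called 1 gene higher and 1 lower over all genes, 0 FGF genes, and 0 in the lists of other ligands, co-receptors (higher and lower) and ERK feedback genes. Fgf15 then had a log2 fold change of 3.17 (FDR 0.11) and Fgfr2 2.35 (FDR 0.15). Under limma voom 1 FGF gene was called higher, and Fgfr2 had a log2 fold change of 2.22 (adjusted p 0.052). DESeq2 called 2 other ligands lower, and 2 co-receptor genes higher and 7 lower.

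Leaving out each library gave 387 to 1151 genes higher and 618 to 1366 lower, the highest of both without WT replicate 1. FGF genes called higher ranged from 1 to 3, other ligands from 0 to 1 higher and 0 to 1 lower, co-receptor genes from 0 to 3 higher and 2 to 8 lower, cascade genes from 0 to 2 higher, ERK feedback genes from 4 to 8 higher and 0 to 1 lower, and other kinase genes from 0 to 2 lower. Log2 fold changes ranged from -0.20 to 0.40 for Fgf4, -0.15 to 0.093 for Fgfr1, 1.69 to 2.81 for Fgfr2, 2.22 to 3.36 for Fgfr3 and -1.02 to 0.24 for Fgfr4. Here the single library left in a genotype is assumed to spread as the other genotype does. Fgfr1 changed sign without KO library F (0.093) and without WT replicate 1 (0.068).

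Contacts of Fgf4 in KO were 3.98 per 10000 PETs within 2.5 kb of the start site and 5.05 with the gene extended by 10 kb, and in WT 2.84 with at least 50% of the anchor in the gene. Fgfr3 in KO had 0.0615 with pairs of at least 2 PETs, and Fgfr4 in KO 4.68 with the gene extended by 10 kb. That extension takes in the KO anchor 8.45 kb from Fgfr4. The nearest WT anchor, 12.9 kb away, lies outside it, and the WT share stayed at 0. The start-site setting was not run for Fgf15 and Fgfr1. The cause was not tested for any of these.

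Levels of Fgf5 and Fgfr3 rest on few counts, and the WT contact pool is the shallower one.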
